A study of Danio rerio with 10 samples.

Results

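The Adam and Mmp metalloproteases and their inhibitors were read in sorted somite progenitors of the zebrafish embryo. The members were all records of the count table whose RefSeq symbol starts with adam (adamts included), mmp and a number, timp or reck. Of 14720 records 17 met this rule, and they were 7 *adam*, 2 *adamts*, 6 *mmp* and 2 *timp* records. No record carried a *reck* symbol. The RefSeq gene table used for names holds 70 genes with such symbols, and those without a record here, *adam8b* and *adam17b* among them, were not analysed.

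Adam proteases are mostly membrane-anchored enzymes with a metalloprotease and a disintegrin domain, and many of them cut the extracellular part off other membrane proteins. Mmp proteases cut proteins of the extracellular matrix and also surface proteins, and some, such as Mmp14, are anchored in the membrane. Timp proteins bind the active site of these enzymes and inhibit them. In vertebrate embryos such enzymes are known for Notch receptor processing and for remodelling the matrix on which cells migrate.

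All embryos were of the WT AB strain and received a caged fluorescein-dextran tracer (cFD). The 5 control libraries came from embryos with the tracer alone, and the 5 spt_cMO libraries from embryos that also carried a caged morpholino against *spadetail* (spt). That name is an earlier one for *tbx16*, which encodes a T-box factor of mesoderm progenitors. In both groups ventral somite progenitors were irradiated at 6 hours post-fertilization (hpf) through a 100 µm diaphragm with light of 360 nm, and cells positive for fluorescein were collected by sorting at 9 hpf. With no morpholino in the control embryos, the loss of *spadetail* and other effects of a morpholino cannot be told apart. Counting was by CEL-seq, a method that sequences 1 tag close to the 3′ terminus of a transcript. The values below are therefore tag counts scaled to library size (CPM); they are not divided by transcript length and are compared between libraries, not between genes.

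Libraries held between 2036973 and 9374914 counts, and 3 counts stood for 0.32 to 1.47 CPM. The target *tbx16* was counted at 386 CPM in control and 526 CPM in spt_cMO. By edgeR's quasi-likelihood test the difference missed the threshold (adjusted p = 0.0897). Of 16 alternative fits 12 missed it too, and the largest adjusted p, 0.247, came from leaving out library 5 of spt_cMO. The difference passed with replicate number as a blocking factor (adjusted p = 0.0172) and by DESeq2 (0.0436). It also passed without the filter on low counts (0.0414) and without spt_cMO replicate 4 (0.0239). Of 8 markers of presomitic progenitors, 6 were abundant enough to test. By edgeR's quasi-likelihood test 1 of these passed as higher and 3 as lower, where 1.78% of all tested records passed. The tested marker *mespaa* averaged 39.5 CPM in control and 33.3 CPM in spt_cMO and did not pass (adjusted p = 0.885). *msgn1* (from 5838 CPM to 2029 CPM), *pcdh8* (a call lost without spt_cMO replicate 1 or 4) and *tbx16l* fell and *tbxta* rose (adjusted p = 0.044, lost on leaving out any 1 library other than spt_cMO replicate 2, with adjusted p up to 0.148, and without the filter on low counts, with 0.0852), while *tbx6* and *mespba* averaged 2.11 CPM and 0.325 CPM in control and were not tested.

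Of the 17 members 6 passed the filter on low counts (3 *adam* and 3 *mmp* records). Among these 6 *adam8a* rose, and no other passed the test in either direction. The call was made by the quasi-likelihood test of edgeR, with p-values adjusted by Benjamini and Hochberg's method over all 6570 tested records. Of those records 1.78% were called, 0.807% higher and 0.974% lower. Without adjustment, too, *adam8a* was the only one of the 6 with a p under 0.05, which 9.44% of all tested records reached. By DESeq2, which gave an adjusted p for 5 of the 6, 1 was higher and 0 lower, and 2.66% of all records were called. In the fit with the replicate block, too, 1 was higher and 0 lower, and 2.75% of all records were called. The median log2 fold change of the 6 tested members was -0.18, against 0.00 over all tested records; 4 of the 6 were negative, as were 49.7% of all tested records.

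*adam8a* (record NM_200637) belongs to the Adam8 group, which in mammals is best known from leukocytes. It was counted at 17.9, 24.3, 24.1, 21.5 and 17.6 CPM in control libraries 1 to 5 and at 43.4, 42.6, 34.7, 45.4 and 44.2 CPM in spt_cMO libraries 1 to 5. Every spt_cMO library lay above every control library, which was so for 1.43% of all tested records. The group means were 21.1 CPM ± 3.23 and 42.1 CPM ± 4.26 (SD, n = 5 each), a 2-fold rise with a log2 fold change of 1.00 (SE 0.13, 95% interval 0.72 to 1.28, adjusted p = 0.00017, edgeR's quasi-likelihood test). A log2 fold change of this size or higher was found in 0.426% of tested records. The counts behind these values ran from 71 to 409 a library. In the authors' deposited table *adam8a* had a log2 fold change of 1.02 with an adjusted p of 7.31e-09, and 3.58% of the records of that table passed at 0.05. In sorted cells measured in bulk, more cells that carry a transcript and more transcript per cell cannot be told apart.

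**Figure D1:**
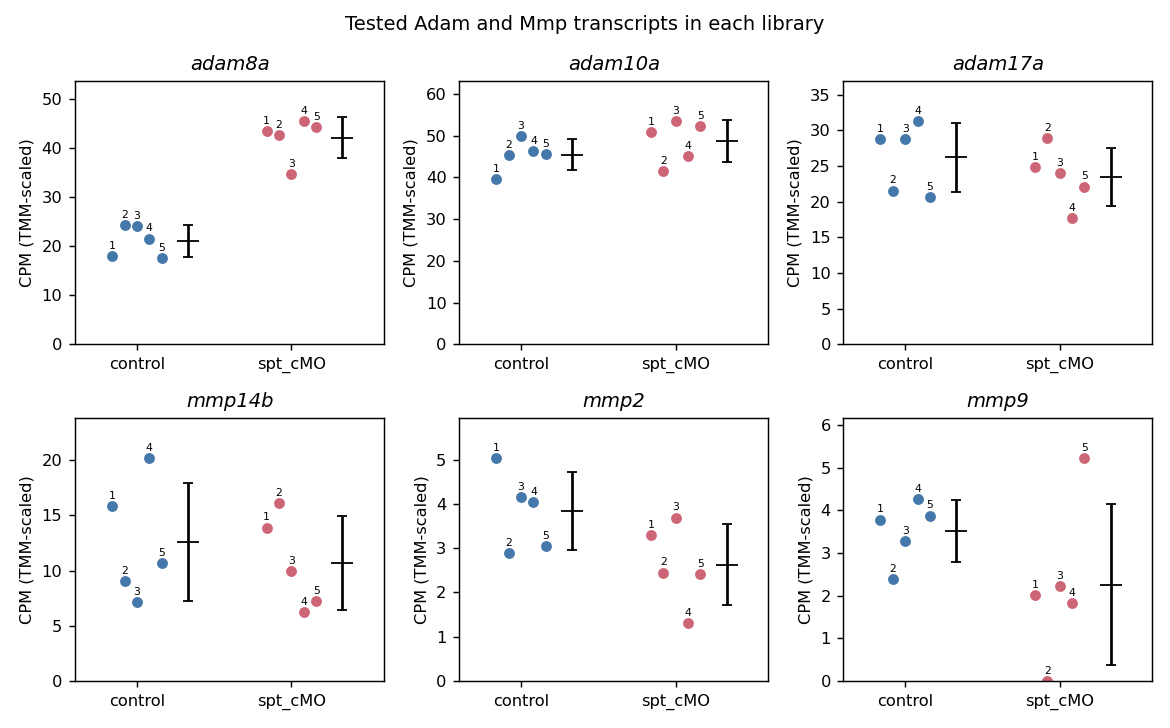
CPM (TMM-scaled) of the 6 tested members in each library, control in blue and spt_cMO in red, with replicate numbers above the points and the mean and SD (n = 5) in black beside them. For adam8a the spt_cMO libraries (34.7 to 45.4 CPM) lie above all control libraries (17.6 to 24.3 CPM), and for the other 5 members the groups overlap.

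*adam10a* encodes the zebrafish counterpart of ADAM10, the enzyme that in mammals makes the ligand-induced cut in Notch receptors and sheds cadherins. It was counted at 39.6, 45.4, 49.9, 46.4 and 45.7 CPM in control libraries 1 to 5 and at 50.9, 41.6, 53.5, 45.1 and 52.3 CPM in spt_cMO libraries 1 to 5. The groups overlapped, with 3 spt_cMO libraries above the control mean and 2 below. The log2 fold change was 0.10 (SE 0.11, 95% interval -0.13 to 0.34, adjusted p = 0.89), an interval that left room for a change between 0.914-fold and 1.27-fold.

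*adam17a* encodes a counterpart of ADAM17, which in mammals releases growth factors of the EGF family and tumour necrosis factor from the cell surface. Control libraries 1 to 5 gave 28.7, 21.5, 28.8, 31.3 and 20.6 CPM and spt_cMO libraries 1 to 5 gave 24.8, 28.9, 23.98, 17.7 and 22.1 CPM. The control libraries ran from 20.6 to 31.3 CPM and the spt_cMO libraries from 17.7 to 28.9 CPM, so the ranges overlapped. The log2 fold change was -0.15 (SE 0.16, 95% interval -0.48 to 0.18, adjusted p = 0.887).

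The tags of the *adam* records were also summed with and without *adam8a*. The 7 *adam* records together made up 86.8 to 105.8 CPM in control and 113 to 122 CPM in spt_cMO, without overlap. Without *adam8a* the other 6 summed to 74.5 CPM ± 5.91 and 75.3 CPM ± 4.95 (SD, n = 5 each), and the ranges of 69.2 to 81.7 CPM and 67.6 to 80.4 CPM overlapped. Among the counts of *adam8a*, *adam10a* and *adam17a*, *adam8a* took 22.7% ± 2.43 in control and 36.8% ± 3.94 in spt_cMO (SD, n = 5 each). The share was lowest in control library 1, at 20.8%, and highest in spt_cMO library 4, at 41.9%. For each count of *adam10a* there were 0.463 counts ± 0.0541 of *adam8a* in control and 0.875 ± 0.152 in spt_cMO.

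**Figure D2:**
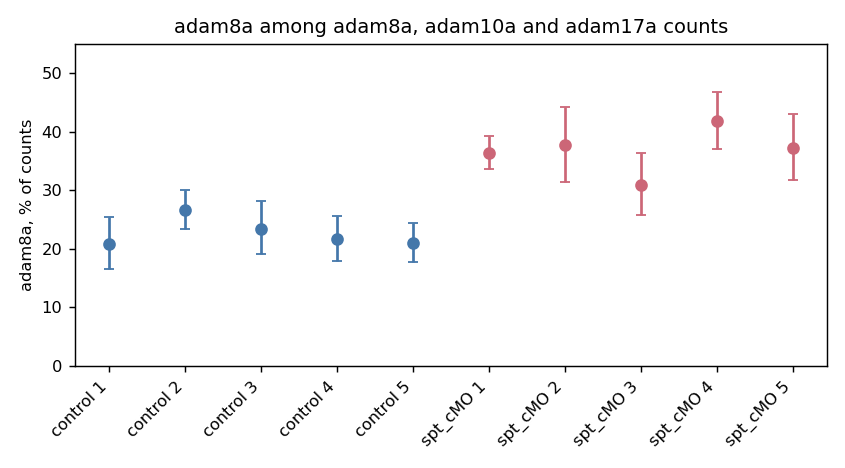
Share of adam8a in the summed counts of adam8a, adam10a and adam17a in each library, in percent, with exact (Clopper-Pearson) 95% binomial intervals that cover counting error only; control in blue, spt_cMO in red. Control libraries lie between 20.8% and 26.6% and spt_cMO libraries between 30.9% and 41.9%; the interval of spt_cMO library 3 overlaps those of control libraries 2 and 3.

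The membrane-anchored matrix protease gene *mmp14b* encodes a counterpart of MMP14, known in mammals to cut collagen and to activate pro-MMP2 together with TIMP2. Its control libraries 1 to 5 gave 15.9, 9.01, 7.13, 20.2 and 10.7 CPM, and its spt_cMO libraries 1 to 5 gave 13.9, 16.1, 9.96, 6.26 and 7.24 CPM. The highest and the lowest control library differed more than the group means did. The log2 fold change was -0.21 (SE 0.31, 95% interval -0.87 to 0.44, adjusted p = 0.917), and without control replicate 4, the highest library, it was 0.02 (adjusted p = 0.991).

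The gelatinase gene *mmp2* was counted at 5.04, 2.88, 4.16, 4.04 and 3.05 CPM in control libraries 1 to 5 and at 3.29, 2.45, 3.69, 1.30 and 2.41 CPM in spt_cMO libraries 1 to 5. All 5 spt_cMO libraries lay below the control mean and each lay below the control library of its number, but the ranges overlapped. The log2 fold change was -0.46 (SE 0.31, 95% interval -1.11 to 0.18) and did not pass (adjusted p = 0.745). In the fit with the replicate block it was -0.59 and did not pass (adjusted p = 0.516).

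The other gelatinase gene, *mmp9*, was counted at 3.78, 2.38, 3.27, 4.26 and 3.88 CPM in control libraries 1 to 5 and at 2.02, 0, 2.21, 1.83 and 5.23 CPM in spt_cMO libraries 1 to 5. The highest library of all was spt_cMO library 5, and the lowest was spt_cMO library 2, the shallowest, where 0 counts allow up to 1.47 CPM. The log2 fold change was -0.63 (SE 0.41, 95% interval -1.49 to 0.23, adjusted p = 0.734). It was -1.01 when spt_cMO replicate 5 was left out and -0.42 when replicate 2 was, and passed in neither fit. With 155 counts of *mmp2* and 138 of *mmp9* over all 10 libraries, against 1448 of *adam8a*, both gelatinase genes had wide intervals, and a fall of 2-fold lay inside each.

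**Figure D3:**
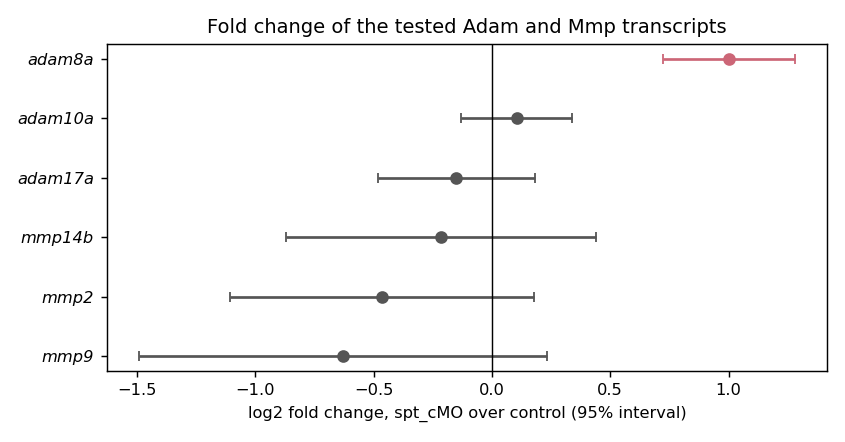
Log2 fold change of the 6 tested members, spt_cMO over control, with 95% intervals from the quasi-likelihood test; adam8a, which passed the adjusted threshold, is red and the other 5 are grey. The interval of adam8a (0.72 to 1.28) lies above those of the other 5, whose upper bounds run from 0.18 to 0.44, and the intervals of the 3 mmp genes are the widest.

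Whether *adam8a* differed from the other members was tested as a difference, since a call in one gene and none in another does not show it. For each library the log2 CPM of another member was subtracted from that of *adam8a*, and the groups were compared over all assignments of the 10 libraries to 2 groups of 5. The fold change of *adam8a* exceeded that of *adam10a* by 0.89 (SE 0.14), that of *adam17a* by 1.14 (SE 0.21) and that of *mmp2* by 1.51 (SE 0.33) on the log2 scale, with no overlap between the groups (exact permutation p = 0.00794 each, 2-sided, which is the lowest value this design allows; adjusted p = 0.0132 over the 5 comparisons). It exceeded that of *mmp9* by 1.93 (SE 0.65, exact permutation adjusted p = 0.0198) and that of *mmp14b* by 1.21 (SE 0.42, exact permutation adjusted p = 0.0397), and there the groups overlapped. The size of the difference from *mmp9* leaned on spt_cMO library 2, where *mmp9* had 0 counts. Without that library it was 1.35 (exact permutation adjusted p = 0.0298). The call against *mmp14b* was lost on leaving out any 1 of 6 libraries (control 1, 4 or 5, spt_cMO 3, 4 or 5), with adjusted p up to 0.0794 in the exact permutation without spt_cMO replicate 4 or 5. As 5 same-numbered pairs, exact sign flips gave p = 0.0625 for *adam10a*, *adam17a*, *mmp2* and *mmp9* and 0.125 for *mmp14b*, where 0.0625 is the smallest that 5 pairs allow, so no difference could pass. *adam8a* entered this comparison with its own rise known, so the differences describe its distance from the other members and are not independent evidence of the rise.

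The remaining 11 members stayed under the filter and were near the limit of what the libraries can count. The best counted were *adam9b*, *timp2b*, *mmp14a*, *timp2a* and *adam9a*. *adam9b*, whose mammalian relative ADAM9 is a widely expressed shedding enzyme, had between 2 and 20 counts a library and averaged 1.63 CPM ± 0.359 in control and 1.98 CPM ± 1.21 in spt_cMO (SD, n = 5 each), with the highest value, 3.91 CPM, in spt_cMO library 4. Its relative *adam9a* averaged 0.913 CPM ± 0.269 and 0.827 CPM ± 0.447. *mmp14a*, the other copy of Mmp14, had 1 to 12 counts a library and averaged 1.30 CPM ± 0.807 and 1.22 CPM ± 0.565. In each of these 3 the groups overlapped and the means differed by less than 1 SD of the wider group.

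Both inhibitor records were counted at similarly low levels in the 2 groups. *timp2b* averaged 1.84 CPM ± 0.595 in control and 1.51 CPM ± 0.775 in spt_cMO, and *timp2a* averaged 0.947 CPM ± 0.609 and 1.19 CPM ± 0.72 (SD, n = 5 each). Summed, the inhibitor tags ran from 2.52 to 3.13 CPM in control and from 1.47 to 4.96 CPM in spt_cMO, so the spt_cMO range enclosed the control range. Timp2 is known in mammals both as an inhibitor of Mmp2 and as the bridge by which Mmp14 activates it.

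A count was rare for the other 6. *adam28* had 12 counts over all libraries, *mmp30* 15, *mmp23bb* 8, *adamts15a* 6, *adam10b* 4 and *adamts10* 4. The genes *adamts10* and *adamts15a* encode secreted proteases that act in the matrix. *mmp23bb*, a gene related to the membrane protease MMP23, had 1 count in the 5 control libraries together and 1, 2, 1, 2 and 1 counts in spt_cMO libraries 1 to 5. These are values at or under 3 counts in every library, so no fold is given. *adamts15a* had 1 count in control and 5 in spt_cMO, 3 of them in spt_cMO library 5. Fitted without a filter on low counts, over 13008 records, none of the 11 members under the filter passed edgeR's quasi-likelihood test. In that fit 0.577% of all records were called higher and 0.684% lower. The lowest adjusted p of the 11 by that test was 0.434, that of *mmp23bb*. DESeq2 was not run on the 11.

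**Figure D4:**
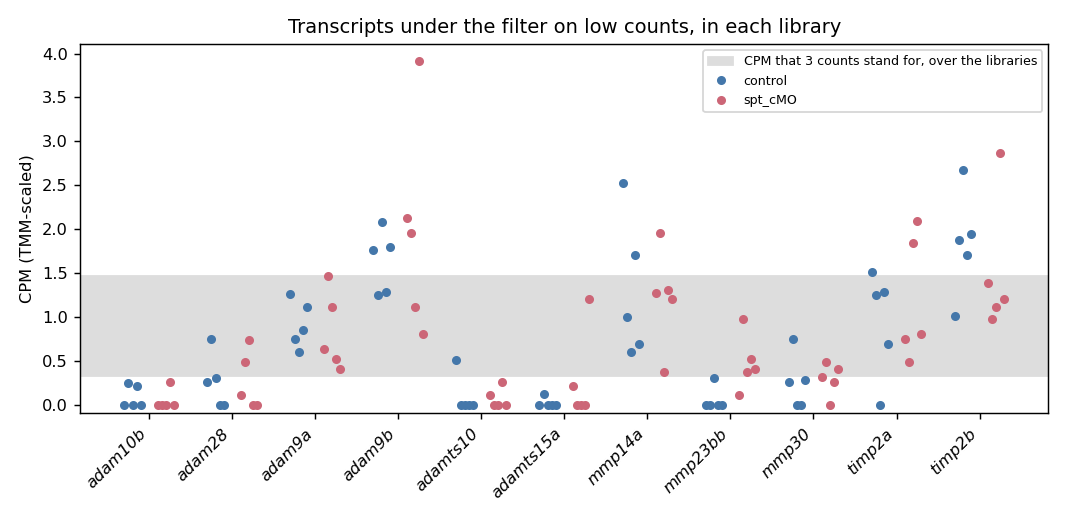
CPM (TMM-scaled) of the 11 members under the filter on low counts, control in blue and spt_cMO in red, 1 point a library. The grey band, 0.32 to 1.47 CPM, is what 3 counts stand for in the deepest to the shallowest library; only adam9b, mmp14a, timp2a and timp2b have points well above it.

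Genes that act with these proteases were read from 4 lists of related genes, beside the 0.807% of all tested records called higher and 0.974% called lower. Of 7 tested regulators of Adam transport and maturation, such as the tetraspanin genes *tspan14* and *tspan17* and the proprotein convertase gene *furina*, none passed (0 also with the replicate number as a block), and their median log2 fold change was 0.12. Of 11 other extracellular proteases and inhibitors *sfrp1a* fell (9.09% of the list) and 10 did not pass. *sfrp1a* encodes a secreted Wnt antagonist whose mammalian counterpart also inhibits ADAM10, and it fell from a control mean of 52.6 CPM ± 8.66 to a mean of 26.03 CPM ± 4.75 in spt_cMO (SD, n = 5 each), a log2 fold change of -1.03 (SE 0.15, adjusted p = 0.00034, edgeR's quasi-likelihood test). The tolloid gene *tll1*, of the astacin metalloproteases, averaged 4.26 CPM in control and 7.59 CPM in spt_cMO without a call (adjusted p = 0.208). The serine protease gene *htra1a* averaged 1.33 CPM ± 0.505 in control and 4.37 CPM ± 2.27 in spt_cMO (SD, n = 5 each). Every spt_cMO library lay above every control library for *htra1a*. This was so for 1.43% of all tested records, a set that does not hold *htra1a*. With 118 counts over all libraries it was under the filter and was not tested in the main fit.

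Of 23 tested genes for proteins shed by ADAM10 or ADAM17 in mammals, 2 fell (8.7% of the list, where 1.78% of all tested records were called) and 21 did not pass. The receptor gene *notch2* had a log2 fold change of -0.90 (SE 0.15), and *appa*, an amyloid precursor protein gene, fell from 136 to 90.1 CPM on average (adjusted p = 0.0432). The call of *appa* was lost on leaving out any 1 library other than control replicate 3 and spt_cMO replicate 2 (adjusted p up to 0.129). The cadherin gene *cdh2*, at 527 and 549 CPM, and *cdh1*, at 44.3 and 45.2 CPM, had no call. The Notch ligand gene *jag1b* averaged 3.47 CPM in control and 7.02 CPM in spt_cMO. Its spt_cMO libraries all lay above its control libraries, as in 1.43% of all tested records. The ephrin gene *efnb2b* averaged 8.75 CPM in control and 5.65 CPM in spt_cMO. Neither gene passed (adjusted p = 0.213 and 0.117, edgeR's quasi-likelihood test). Of 5 tested matrix genes the fibronectin gene *fn1b* fell (1 gene, 20% of the list, log2 fold change -0.69, adjusted p = 0.047), a call lost on leaving out any 1 library other than control replicate 4 and spt_cMO replicates 2 and 3 (adjusted p up to 0.115), while *fn1a* had a log2 fold change of -0.03. The medians of the last 3 lists, 0.09, 0.05 and 0.07 on the log2 scale, lay near that of all tested records.

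Markers of other cell types were set beside the rise of *adam8a*. Of 9 early myeloid and blood genes none was abundant enough to test. Their summed level ran from 5.01 to 9.55 CPM in control and from 4.80 to 10.6 CPM in spt_cMO. The myeloid genes *spi1b*, *mpx* and *lyz* had 6, 9 and 11 counts over all 10 libraries, too few to compare the groups. They averaged 0.053, 0.055 and 0.203 CPM in control and 0.280, 0.423 and 0.180 CPM in spt_cMO. The rest of the list went both ways. *lcp1*, *tal1* and *cebpa* averaged 1.67, 0.615 and 0.359 CPM in control and 1.39, 0.417 and 0.298 CPM in spt_cMO. *coro1a*, *lmo2* and *gata1a* averaged 1.87, 1.72 and 0.0426 CPM in control and 2.47, 2.37 and 0.0522 CPM in spt_cMO. Of 4 notochord markers 3 were tested and *shha* rose, from 1.81 to 6.23 CPM on average (adjusted p = 0.0195, lost on leaving out control replicate 4 or spt_cMO replicate 1 or 3, with adjusted p up to 0.0673), and the list's sum ran from 12.5 to 27.3 CPM and from 21.7 to 54.3 CPM. The other tested notochord markers, *foxa* and *noto*, had log2 fold changes of 0.55 and 0.47 without a call. Of 5 neural markers *sox2* rose, from 43.1 to 76.7 CPM on average. The others, *sox19a*, *sox3*, *zic2b* and *otx2b*, had no call, with log2 fold changes of -0.0018, 0.072, 0.14 and 0.36. The neural sum ran from 546 to 634 CPM in control and from 623 to 774 CPM in spt_cMO. Most of it was *zic2b*, which averaged 395 and 437 CPM. Among all tested records 0.807% were called higher. No marker at 0 in every library belonged to these 3 lists. The part of myeloid, notochord and neural cells in the rise of *adam8a* was not tested. In the lists of the hatching gland (4 tested), the enveloping layer and epidermis (7 tested records), the endoderm (2 tested), the endothelium and lateral mesoderm (2 tested) and germ cells (3 tested) no gene passed, and none of the yolk syncytial markers could be tested. The enveloping layer and epidermis sum ran from 169 to 339 CPM in control and from 242 to 501 CPM in spt_cMO. In the same order, the sum ran from 33.6 to 164 and from 41.6 to 184 CPM for the hatching gland. It ran from 47.5 to 77.3 and from 44.1 to 83.0 CPM for the endoderm. For the endothelium and lateral mesoderm it was 32.8 to 64.8 and 42.8 to 69.5 CPM, and for germ cells 36.4 to 65.3 and 22.5 to 52.4 CPM.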

How the data were processed

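The authors deposited raw read counts per RefSeq transcript record for 10 CEL-seq libraries, aligned to the assembly Zv8 with custom scripts in Galaxy per the series' design text; strand use and the counter are not given in the sources used here. They also deposited an edgeR comparison whose columns, per the file headers, are log2 fold change, log2 CPM, a likelihood ratio (LR) score, p-value and false discovery rate. The labels mention no molecular identifiers. The binomial intervals of the share of *adam8a* cover counting error only. The intervals of the log2 fold changes also take in the variation between libraries.

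Symbols came from the RefSeq table of GRCz12tu, used for names and gene order only (13986 of 14720 records matched); unmatched records, 1.4% to 1.62% of the counts per library, were kept in all fits. The analysis used edgeR 4.0.16 in R 4.3.3: filterByExpr (minimum count 10, minimum total 15, minimum proportion 0.7), TMM scaling, robust glmQLFit and glmQLFTest, 2-sided, Benjamini-Hochberg at 0.05 over 6570 records. The standard error was taken from the F statistic. Log2 CPM used a prior count of 2. The fit was tested on simulated data, where it recovered 48% of 1.5-fold, 86% of 2-fold, 98% of 3-fold and 94% of 4-fold changes. Of its 175 calls there 12 were false. The recovery was split by fold and not by count level, so it does not give the recovery for members with few counts, such as *mmp2* and *mmp9*. DESeq2 1.42.0, other scalings and filters, a replicate block and leaving out each library were the alternatives.

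Per the labels the libraries of a group are biological replicates. Same-numbered libraries deviated together weakly (r = 0.135, 0.251, 0.119, 0.203 and 0.147 over 6570 records, all above 0.1). The numbers were therefore taken as pairs in the fit with the replicate block and in the sign flips. The main fit and the exact permutation did not use the pairs. The highest r with a library of another number was 0.196, 0.00917, 0.144, 0.196 and 0.144, above the same-number r for numbers 1 and 3. The labels do not say what a number shares. The members, lists and tests were chosen with earlier results of these data known. Every member was named; those called are given in full, and of related lists the called genes. *tspan14*, *tspan17*, *furina*, *tll1*, *htra1a*, *jag1b*, *efnb2b*, *cdh1*, *cdh2* and *fn1a* were named after their values were seen.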

Additional observations from a re-analysis of the deposited data

Results flagged for a closer look

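Among 12 groups of 5 libraries, 1 for each of the 6 tested members in control and in spt_cMO, 1 library stood apart by Dixon's criterion, which flags about 5% of such groups by chance. It was spt_cMO library 3 for *adam8a*, at 34.7 CPM, where the nearest library of its group had 42.6 CPM and the highest 45.4 CPM. It was still above the highest control library, at 24.3 CPM. Without that library the rise of *adam8a* had a log2 fold change of 1.06 (edgeR's quasi-likelihood test, adjusted p = 0.000287).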

How the results depend on the processing

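Under all 16 alternative fits 1 member, *adam8a*, was called higher and 0 lower, with log2 fold changes of *adam8a* between 0.94 and 1.07 and an adjusted p of at most 0.00104 (without spt_cMO replicate 1). The 5 other tested members had no call in any of these fits; DESeq2 gave no adjusted p for *mmp9*. The sign of *mmp14b* turned without control replicate 4 (log2 fold change 0.022), and over the fits without 1 library its log2 fold change ran from -0.39 to 0.022. The number of all records called higher, 53, became 82 by DESeq2 and 88 under the replicate block and ran from 36 to 56 without single libraries (36 without control replicate 5), and the number called lower, 64, ran from 45 to 93; the cause was not tested. The number of members from which *adam8a* differed, 5, ran from 4 to 5 without single libraries and was 0 with the replicate block, where exact sign flips over 5 pairs cannot go below 0.0625. The block changed no other call of a member or of a related gene. With upper quartile scaling the calls of *appa* (edgeR's quasi-likelihood test, adjusted p = 0.054) and *fn1b* (adjusted p = 0.0599) were lost. With a prior count of 0.5 the 5 differences kept their calls, and the difference from *mmp9* grew from 1.93 to 2.35. The 11 members under the filter had at most 20 counts in a library. The interval of *mmp14b*, with 564 counts, was about as wide as that of *mmp2*, with 155, and its control libraries ranged from 7.13 to 20.2 CPM.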

Other observations

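The 5 tested records whose log2 CPM followed *adam8a* most closely within the groups, by Pearson correlation of deviations from the group means over 10 libraries, were *abhd17c* (r = 0.926), *sox1b* (0.911), *pnpla3* (0.904), *stat3* (0.882) and *zgc:113518* (0.882). They were picked as the highest of 6570 records over few libraries that share depth and scaling, so the values are a description. None of the 5 passed the comparison of the groups (edgeR's quasi-likelihood test, lowest adjusted p = 0.795, that of *stat3*). Among the other tested members only *adam10a* had a positive r with *adam8a* (0.128). The r was negative for *adam17a* (-0.0442), *mmp9* (-0.114), *mmp14b* (-0.357) and *mmp2* (-0.435).

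In the gene order of GRCz12tu *adam8a* stands between *znf511* and *spef1*. *znf511* had a log2 fold change of -0.19 and was not called (edgeR's quasi-likelihood test, adjusted p = 0.756). *spef1* had 14 counts over all libraries and was not tested, so whether it changed with *adam8a* cannot be told.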
